A study of Solanum lycopersicum with 32 samples.

Results

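Control grafts of tomato whose genotype labels read sft//sft were compared with control grafts labelled WT//WT, 2 libraries against 2 and 4 of the 32 libraries in the series. They were selected by these labels, with earlier results of these data known. In these grafts no 35S:SFT partner is named, so the comparison sets sft mutant tissue beside wild type (WT) without an overexpressing donor. The titles of the libraries labelled sft//sft name a wt partner, written recipient first, so the recipient is sft by both labels, while the donor is sft by one and WT by the other and cannot be settled here.

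The study sequenced stem RNA of Solanum lycopersicum in 16 groups of 2 libraries, in experiments on grafting, on overexpression, on FUL2 (labelled TFUL2), on a Ginkgo FT gene and on heat shock. A further 3 pairs of groups are used here beside the control grafts. Grafts labelled 35S:SFT//sft and 35S:SFT//WT carry 1 kind of donor, in which the strong viral 35S promoter drives SFT, on sft and WT recipients. Ungrafted sft and WT stems come from the overexpression experiment, where the sft stems are called sft in their titles and SFT in their genotype label. Ungrafted 35S:SFT and WT stems come from the FUL experiment. Grafts labelled 35S:SFT//sp, on recipients of the sp mutant, and ungrafted stems labelled pSFT-SFT, titled pTFT, appear where their values help to place a gene. The labels give no allele, cultivar or age, do not say which graft partner's stem was sampled, and describe each sample as segments of internodes. They call the samples independent and taken in duplicate, without stating whether replicates derive from separate plants. The p-values therefore cover the spread between samples only, and that spread may be technical. In whole stems fewer cells of a type and less RNA per cell cannot be told apart.

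Florigen is the leaf-made protein that moves through the phloem to growing tips and triggers flowering. The tomato gene for it is SINGLE FLOWER TRUSS (SFT), the counterpart of FT in Arabidopsis, and its loss delays flowering. SELF PRUNING (SP), a relative of Arabidopsis TFL1, acts against it and keeps shoots indeterminate. The FRUITFULL-clade MADS-box genes FUL1, FUL2, MBP10 and MBP20 belong to a family of transcription factors that promote flowering and fruit ripening and in Arabidopsis FRUITFULL is switched on downstream of FT at the shoot tip.

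The 4 control-graft libraries held 28653604 to 35816538 reads on genes, within the 28114019 to 45790153 of all 10 graft libraries, and 3 reads in a graft library correspond to between 0.0655 and 0.107 CPM, the reads scaled to a common library total. The 2 sft//sft libraries differed more from each other than the libraries of any other graft group did. Between them 591 of 21566 genes, or 2.74%, lay more than 2-fold apart on log2(CPM + 1), against 220 to 273 genes in the other 4 groups. The correlation across genes between sft//sft replicates 1 and 2 was 0.984. Replicate 1 lay nearest to WT//WT replicate 1 (r = 0.993), and replicate 2 nearest to 35S:SFT//sft replicate 2 (r = 0.994). This was not particular to sft//sft, as both 35S:SFT//WT and both 35S:SFT//sp libraries also lay nearer to another group than to their own replicate. Their r was 0.993 and 0.995, against 0.988 within 35S:SFT//WT and 0.99 within 35S:SFT//sp. Replicate 1 of 35S:SFT//sft and replicate 2 of WT//WT lay nearest to their own group. Each library nearest to one of another group shared a run of label numbers (close sample numbers) with it. The cause was not tested. Results that rest on both sft//sft libraries are also given without each of them where that moves them.

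**Figure D1:**
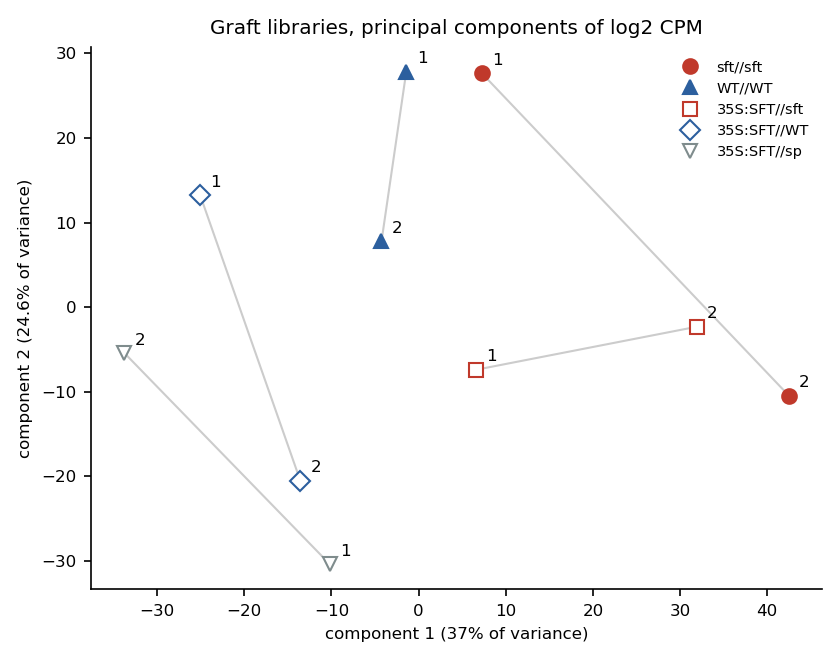
The first 2 principal components of log2 CPM of the 10 graft libraries are plotted, with 37% of the variance on the x axis and 24.6% on the y axis. Points are libraries with their replicate number, lines join the libraries of a group, filled symbols are the control grafts, and red, blue and grey mark sft, WT and sp recipients. The 2 sft//sft libraries lie far apart, and replicate 1 lies next to WT//WT replicate 1.

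SFT itself was read at a similar low level in both kinds of control graft. It stood at 1.54 and 1.32 CPM in sft//sft and at 1.59 and 1.36 CPM in WT//WT, so the groups overlapped. The log2 fold change was -0.04 (SE 0.77, edgeR adjusted p = 0.99). The ungrafted stems gave the same picture, with 2.59 and 2.25 CPM in sft and 2.8 and 2.21 CPM in WT. The transcript level of SFT thus does not separate mutant from wild type in either experiment and does not check the labels. Among the 35S:SFT grafts it stood at 2.79 and 3.18 CPM on sft recipients and at 1.14 and 1.58 CPM on WT recipients (log2 1.14, SE 0.77, edgeR adjusted p = 0.62). On sp recipients under that donor SFT stood at 4.51 and 0.531 CPM. SP was close to the limit of counting in the control grafts, with 0 and 0 reads in sft//sft and 1 and 0 reads in WT//WT, and was not tested there.

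FUL1 and FUL2 were both lower in sft//sft in every library, without passing the adjusted threshold in edgeR. FUL2 stood at 0.799 and 0.715 CPM in sft//sft and at 2.77 and 2.09 CPM in WT//WT. The groups did not overlap, the log2 fold change was -1.67 (SE 0.31), and the edgeR adjusted p was 0.32. FUL1 stood at 0.661 and 0.25 CPM in sft//sft against 1.51 and 1.5 CPM in WT//WT. Replicate 2 was the lower of the sft//sft libraries, both lay below both WT//WT libraries, and the log2 fold change was -1.66 (SE 0.38, edgeR adjusted p = 0.45). DESeq2 called both genes, with adjusted p of 0.0038 for FUL2 and 0.013 for FUL1.

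In stems that were never grafted, both genes were again lower in every sft library. FUL2 stood at 0.396 and 0.49 CPM in ungrafted sft and at 1.74 and 1.61 CPM in ungrafted WT (log2 -1.93, SE 0.24, edgeR adjusted p = 0.13). FUL1 stood at 0.977 and 1.08 CPM in ungrafted sft and at 3.76 and 3.56 CPM in ungrafted WT (log2 -1.83, SE 0.19, edgeR adjusted p = 0.077). The libraries of the ungrafted groups did not overlap for either gene.

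Under a 35S:SFT donor FUL2 was high in both recipients. It stood at 10.7 and 7.3 CPM in 35S:SFT//sft and at 10.7 and 10.2 CPM in 35S:SFT//WT, with a log2 fold change of -0.22 (SE 0.26, edgeR adjusted p = 0.8). The recipient difference in the control grafts minus that under the 35S:SFT donor was log2 -1.46 for FUL2 (SE 0.41, unadjusted p = 0.0071, edgeR adjusted p = 1). FUL1 stood at 3.95 and 3.84 CPM in 35S:SFT//sft and at 7.7 and 9.17 CPM in 35S:SFT//WT, so sft recipients stayed below WT recipients there (log2 -1.11, SE 0.3, edgeR adjusted p = 0.32). For FUL1 the difference between the recipient contrasts was log2 -0.55 (SE 0.48, edgeR adjusted p = 1).

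MBP10 and MBP20 were too low to compare in the control grafts. MBP10 had 5 and 3 reads in sft//sft and 15 and 3 reads in WT//WT, and MBP20 had 1 and 0 reads against 3 and 1 reads. The ratio of summed reads per depth, sft//sft over WT//WT, was 0.497 for MBP10 (exact 95% interval 0.187 to 1.2) and 0.28 for MBP20 (0.00568 to 2.83). Neither passed the test, with edgeR adjusted p of 0.84 and 0.83.

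**Figure D2:**
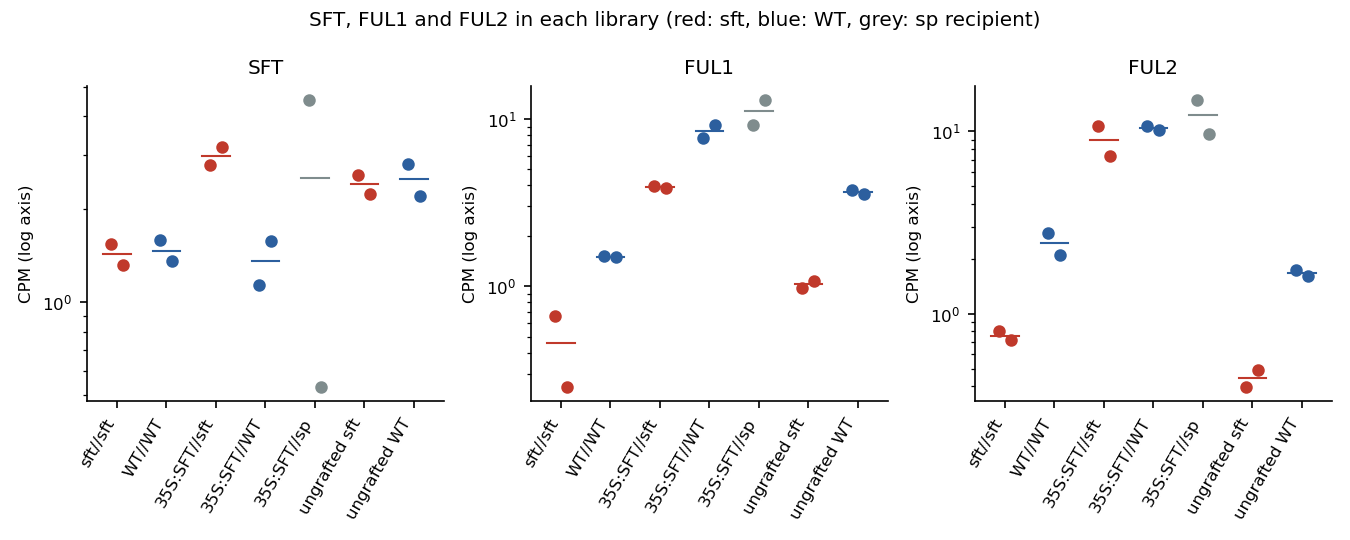
CPM of SFT, FUL1 and FUL2 is plotted on a log axis for each library of the 5 graft groups and of ungrafted sft and WT, with a line at each group mean of 2 libraries. FUL1 and FUL2 lie lower in sft//sft than in WT//WT, as between the ungrafted groups, while SFT overlaps between sft and WT in both.

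Over all genes, 2 of 21566 passed an adjusted p of 0.05 in edgeR between sft//sft and WT//WT (0.00927%), 1 higher and 1 lower. At an unadjusted p under 0.05 there were 1445 genes (6.7%), 625 higher and 820 lower in sft//sft. DESeq2 called 121 genes, 32 higher and 89 lower, and both edgeR calls were among them. Leaving out any 1 of the 4 libraries left 0 genes called by edgeR, with 845 to 2447 at an unadjusted p under 0.05. The count of unadjusted genes was 2447 without sft//sft replicate 1 and 1011 without sft//sft replicate 2. These fits hold no term for the run of label numbers, and with one edgeR called 7 genes, among them both calls.

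The gene that rose was Solyc06g017860. It had 102 and 90 reads in sft//sft, or 2.81 and 3.22 CPM, and 2 and 2 reads in WT//WT, below the level of 3 reads in a library. The ratio of summed reads per depth was 53.7, with an exact 95% interval of 20.6 to 199 that covers counting error only, and the edgeR log2 fold change was 5.67 (SE 0.47, adjusted p = 0.023). The same split appeared under the 35S:SFT donor, with 2.67 and 3.32 CPM on sft recipients against 2 and 2 reads on WT recipients. It appeared again without a graft, where ungrafted sft stems had 68 and 69 reads and ungrafted WT stems 0 and 0. Set against 3 reads in each WT library, the ungrafted sft level was at least 24.7-fold higher. Libraries of sp recipients had 1 and 6 reads, and stems labelled pSFT-SFT had 0 and 1, so the high level was seen in sft tissue and in no other group of the graft and overexpression experiments.

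The gene that fell was Solyc11g066090. It stood at 4.79 and 5.25 CPM in sft//sft and at 18.9 and 22.3 CPM in WT//WT, with no overlap (log2 -2.04, SE 0.16, edgeR adjusted p = 0.023). Under the 35S:SFT donor it stood at 5.18 and 5.75 CPM on sft recipients and at 11.7 and 15.2 CPM on WT recipients (log2 -1.3, SE 0.16, edgeR adjusted p = 0.083). In ungrafted stems it stood at 6.07 and 5.78 CPM in sft and at 24.6 and 23.1 CPM in WT, a fall that passed the test there (log2 -2.01, SE 0.12, edgeR adjusted p = 0.013). The sp recipients, at 14.3 and 15.1 CPM, lay with the WT recipients under the same donor. Stems labelled pSFT-SFT, at 6.75 and 5.63 CPM, lay with the sft stems. The WT stems of the FUL experiment stood at 8.45 and 8.31 CPM, below every WT library of the graft and overexpression experiments.

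Among genes with groups apart and a mean log2 CPM of at least 1, the next by p in each direction did not pass the adjusted threshold in edgeR. Solyc11g065180 stood at 73.3 and 70.3 CPM in sft//sft and at 44.8 and 41.7 CPM in WT//WT (log2 0.73, SE 0.11, edgeR adjusted p = 0.21). Solyc01g073690 stood at 158 and 176 CPM in sft//sft and at 313 and 311 CPM in WT//WT (log2 -0.9, SE 0.09, edgeR adjusted p = 0.058). DESeq2 called both, with adjusted p of 2e-04 for Solyc11g065180 and 3.3e-14 for Solyc01g073690, and edgeR called Solyc01g073690 without the filter on low counts (adjusted p = 0.048). Both had groups that did not overlap, and both kept that order under the 35S:SFT donor and without a graft. For Solyc01g073690 the log2 fold change was -0.97 (SE 0.09, edgeR adjusted p = 0.033) under the 35S:SFT donor and -0.97 (SE 0.08, edgeR adjusted p = 0.032) in ungrafted stems, so it fell in both. Its low level was not particular to sft. Stems labelled pSFT-SFT, at 197 and 179 CPM, lay near the ungrafted sft stems (185 and 172 CPM) and below the ungrafted WT stems (340 and 358 CPM). The WT stems of the FUL experiment stood at 129 and 143 CPM for Solyc01g073690, below every sft library of the graft and overexpression experiments.

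**Figure D3:**
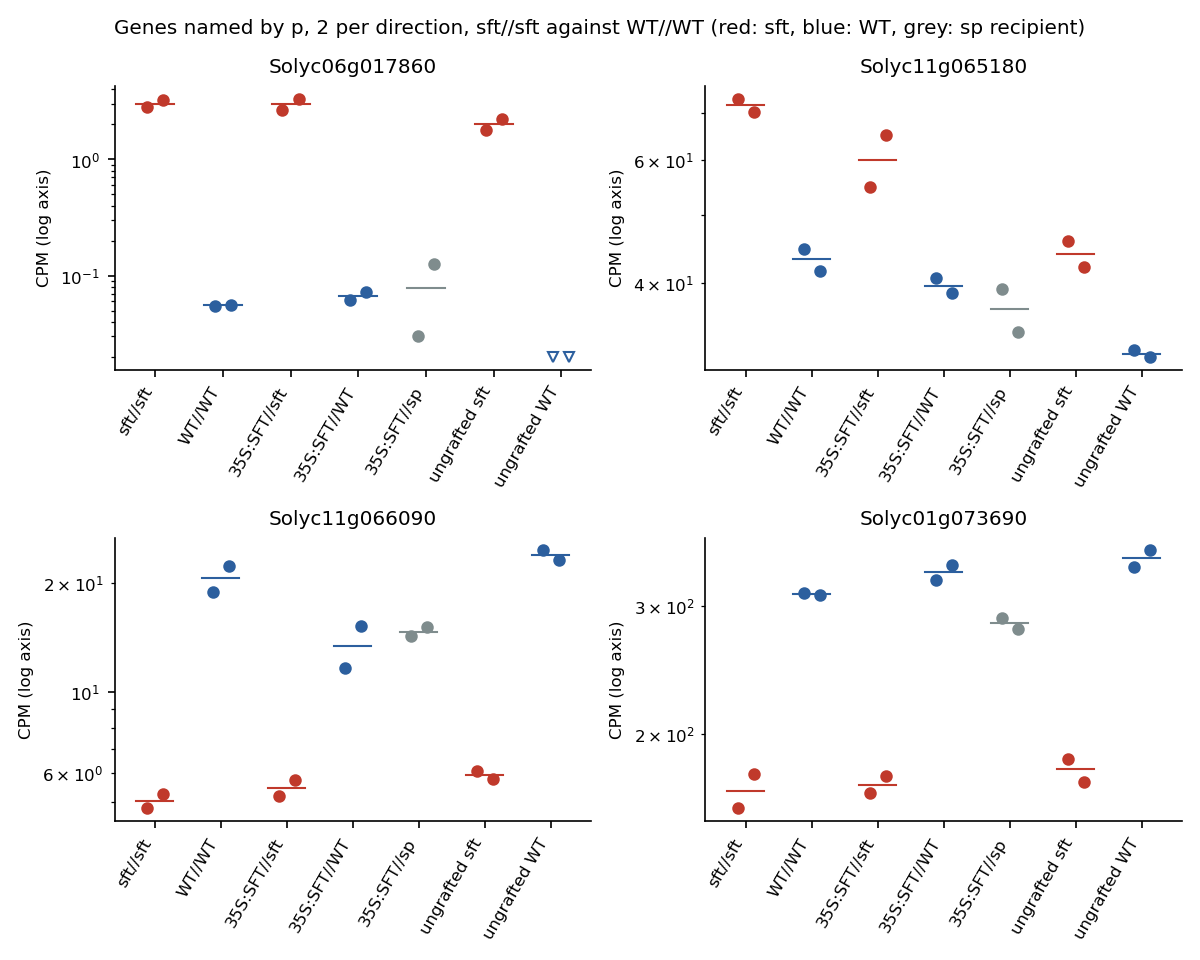
CPM on a log axis is plotted for the 2 genes named in each direction between sft//sft and WT//WT, for each library of the graft groups and of ungrafted sft and WT. Lines are group means of 2 libraries, and open triangles mark 0 reads. Within each kind of donor and among ungrafted stems, the sft libraries lie on 1 side of the WT libraries for all 4 genes.

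Whether the control-graft difference recurs was read in 2 comparisons that share no library with it. On 35S:SFT donors, sft against WT recipients gave 3 calls in edgeR (0.0139% of 21566 genes), 1 higher and 2 lower, with 2277 genes at an unadjusted p under 0.05. All 3 went the same way in the control grafts. They were Solyc06g017860, Solyc01g073690 and Solyc01g073660, which stood at 7.05 and 6.72 CPM in sft//sft and at 13.9 and 13.1 CPM in WT//WT. Of the 1445 genes with an unadjusted p under 0.05 in the control grafts, 1139 (78.8%) went the same way under the 35S:SFT donor, against 64.2% of all genes. Of the 57 genes with an unadjusted p under 0.001, 53 (93%) did.

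Between ungrafted sft and WT stems edgeR called 12 of 21141 genes (0.0568%), 3 higher and 9 lower. Of these, 11 were tested in the grafts, and 11 had the same sign between sft//sft and WT//WT. In 10 of the 11 the unadjusted p in the control grafts was under 0.05, as it was in 6.7% of all genes tested there. The exception was 1 gene at log2 -0.02. The median size of the difference over the 11 genes was log2 1.19 in the control grafts and 1.94 in the ungrafted stems. Of the genes with an unadjusted p under 0.05 in the control grafts that were tested in both, 988 of 1330 (74.3%) went the same way in ungrafted stems, against 59.5% of all 20786 genes, and 69.6% to 77.6% did without each control-graft library in turn.

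Among the genes called in ungrafted stems, Solyc06g083500 showed the largest difference between the control grafts. It stood at 0.413 and 0.357 CPM in sft//sft and at 5.21 and 5.28 CPM in WT//WT (log2 -3.75, SE 0.47, edgeR adjusted p = 0.16). In ungrafted stems it stood at 0.555 and 0.621 CPM in sft and at 5.38 and 6.25 CPM in WT (log2 -3.3, SE 0.19, edgeR adjusted p = 0.013). WT and sft did not overlap in either experiment. Under the 35S:SFT donor it stood at 0.157 and 0.487 CPM on sft recipients and at 5.34 and 5.21 CPM on WT recipients. The log2 fold change there was -4 (SE 0.48, edgeR adjusted p = 0.083), so sft recipients stayed low with that donor. The sp recipients stood at 0.841 and 0.382 CPM, on the sft side. Stems labelled pSFT-SFT, at 5.9 and 5.77 CPM, lay with the ungrafted WT stems. In the FUL experiment the WT stems stood at 0.452 and 0.539 CPM and the 35S:SFT stems at 13.8 and 15.7 CPM, so that WT group was as low as the sft groups of the other experiments.

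Solyc06g074620 was higher in ungrafted sft stems (log2 1.39, SE 0.08, edgeR adjusted p = 0.013). It stood at 27.7 and 13.6 CPM in sft//sft and at 7.64 and 10.5 CPM in WT//WT (log2 1.19, SE 0.37, edgeR adjusted p = 0.63). The groups did not overlap, but the 2 sft//sft libraries lay further from each other than sft//sft replicate 2 lay from the WT//WT libraries. The other called rise of the ungrafted stems, Solyc06g005820, could not be read in the control grafts, with 0 and 2 reads in sft//sft and 0 and 1 in WT//WT.

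The mean of both recipient contrasts sets 4 sft-recipient libraries against 4 WT-recipient libraries. It called 32 of 21566 genes in edgeR (0.148%), 9 higher and 23 lower on sft recipients. In all 32 the 4 sft-recipient libraries lay apart from the 4 WT-recipient libraries, as they did in 1470 genes of all tested (6.82%). Differences over 4-fold were seen in 18 of the 32 genes and under 2-fold in 9, and 5 had 3 or fewer reads over the 4 libraries of their low side. The count rests on each sft-recipient library, since it was 6 without sft//sft replicate 1 and 4 without replicate 2. It was 9 and 4 without 35S:SFT//sft replicates 1 and 2, 21 and 7 without 35S:SFT//WT replicates 1 and 2, and 15 without WT//WT replicate 2. DESeq2 called 539 genes, among them all 32. With a term for the run of label numbers edgeR called 376, again with all 32.

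Read in the ungrafted stems, which had no part in choosing them, 28 of the 31 genes tested there went the same way, 25 with an unadjusted p under 0.05. Of all genes tested in the ungrafted stems, 5% had an unadjusted p under 0.05 in either direction. Solyc12g010980 was 1 of the 3 that did not. It stood at 29.9 and 29 CPM in sft//sft against 20 and 17.5 CPM in WT//WT, and at 22.4 and 26.1 against 12.5 and 11.3 CPM under the 35S:SFT donor (mean of both, log2 0.84, SE 0.08, edgeR adjusted p = 0.013). In ungrafted stems its libraries overlapped, at 29.4 and 45.8 CPM in sft and a mean of 63.9 ± 55.2 CPM (SD, n = 2) in WT. At 27 of the 32 genes the mean of the sp recipients lay nearer to the WT than to the sft recipients on log2(CPM + 0.1), and at 5 nearer to sft. The donor was not matched there. The sp recipients all had a 35S:SFT donor, while the sft and WT means took in the control grafts as well.

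No gene passed the test of the difference between both recipient contrasts in edgeR (0%), with 826 at an unadjusted p under 0.05. DESeq2 called 21 genes in that test.

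**Figure D4:**
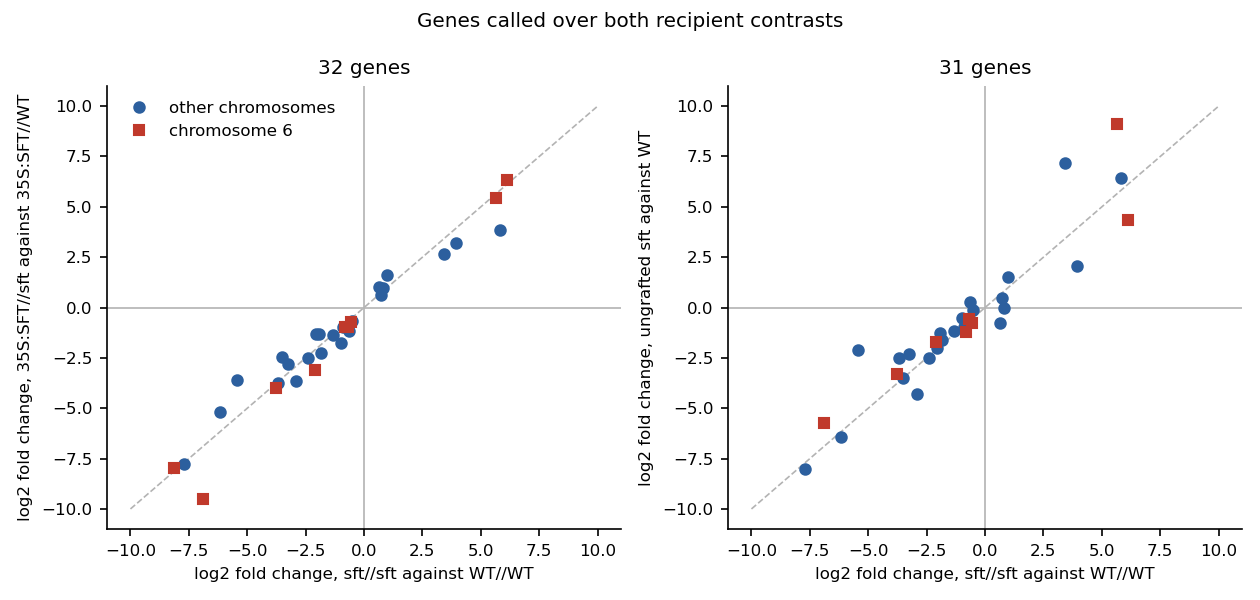
For the genes called over both recipient contrasts, the log2 fold change between sft//sft and WT//WT is on the x axis, with that under the 35S:SFT donor (left, 32 genes) or in ungrafted stems (right, 31 genes) on the y axis. Red squares are genes of chromosome 6 and the dashed line marks equal values. The left panel shows the values that chose the genes, while in the right panel 28 of 31 points lie in the quadrants of equal sign.

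Several of these genes are neighbours in the order of their identifiers. Of the 32, 10 lay within 10 rows of another called gene, 3 on chromosome 1, 5 on chromosome 6 and 2 on chromosome 8. No such share was worked out over all genes tested, so this count is a description. Overlapping genes and near-identical copies side by side may also share reads. Chromosome 6, by the number in the identifier, held 9 of them, or 0.475% of its genes tested against 0.148% of all. A wider set, with an unadjusted p under 0.05 and 1 direction in the control grafts, under the 35S:SFT donor and in ungrafted stems, held 111 genes of 20786 (0.534%), 44 higher and 67 lower in sft. A further 5 genes passed in all 3 comparisons with differing directions.

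Of those 111 genes, 24 lay on chromosome 6 (1.32% of its genes tested) and 2 on chromosome 3 (0.0915%), which holds SFT. Within 50 rows on each side of SP on chromosome 6 there were 13 among 82 genes tested, or 15.9%, 7 higher and 6 lower. The rest of chromosome 6 had 0.635% and the other chromosomes 0.459%. Within 50 rows of SFT there were 0 of 46. Without each control-graft library in turn, 11 to 13 genes stood in the window around SP and 86 to 138 genes in all. The window was chosen with these results known, and the shares are a description.

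**Figure D5:**
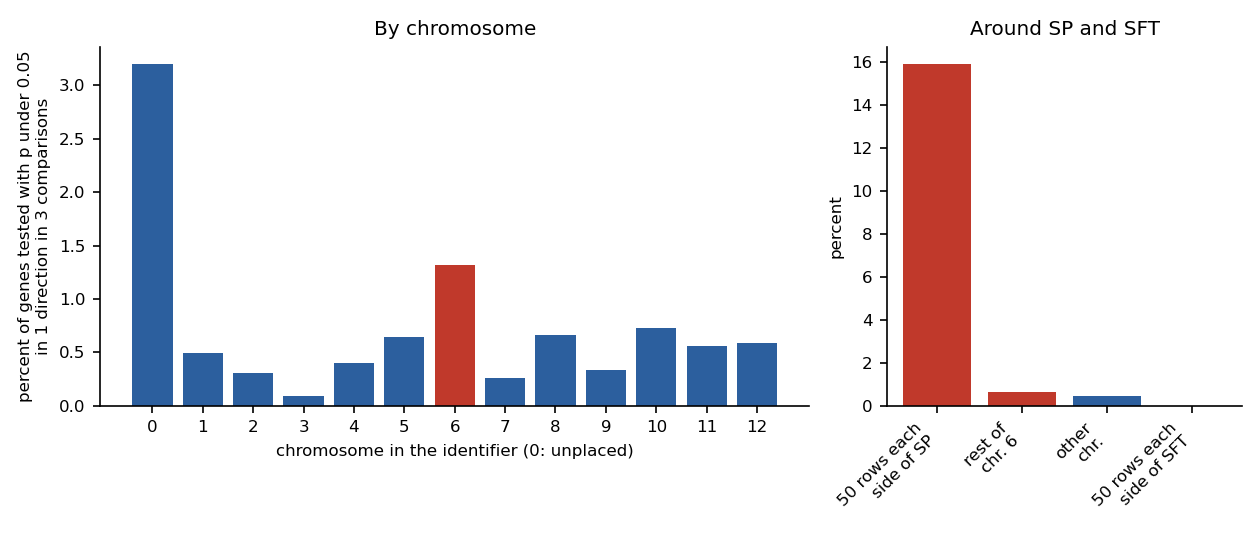
Bars give the percent of genes tested that had an unadjusted p under 0.05 and 1 direction in the control grafts, under the 35S:SFT donor and in ungrafted stems, by chromosome (left) and around SP and SFT (right), with chromosome 6 in red. The 50 rows on each side of SP reach 15.9%, against 0.459% on the other chromosomes. The bar of chromosome 0, which collects unplaced identifiers, rests on 4 genes of 125.

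Genes that differed between ungrafted 35S:SFT and WT stems were read in the control grafts as well. Whether they differ through florigen or through other differences between the lines was not tested. In the FUL experiment 35S:SFT stems differed from WT in 370 of 21312 genes (1.74%), 169 higher and 201 lower in edgeR, and SFT stood at 64.1 and 59.8 CPM in 35S:SFT against 0 reads in both WT libraries. Both libraries of a FUL group carry the same sample number, with a B added to the second. Graft and overexpression libraries each carry their own. Whether the FUL pairs are separate samples could not be checked, so their spread may be the smaller for it. Of the genes higher in 35S:SFT, 159 were tested in the grafts and 92 (57.9%) lay below 0 in sft//sft against WT//WT, with a median of log2 -0.08. Of the genes lower in 35S:SFT, 192 were tested and 69 (35.9%) lay below 0, with a median of log2 0.09. Over all genes 49.6% lay below 0 and the median was 0. The edgeR test called 0 genes of either list in the control grafts. At an unadjusted p under 0.05 the genes higher in 35S:SFT held 10 lower and 10 higher ones, and the genes lower in 35S:SFT held 5 lower and 18 higher ones. These are 6.29% and 6.29% of the first list and 2.6% and 9.38% of the second, against 3.8% lower and 2.9% higher among all genes tested.

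These shares depend on single libraries, and most on sft//sft replicate 2. Without it 47.2% of the genes higher in 35S:SFT and 48.2% of those lower in 35S:SFT lay below 0, and without sft//sft replicate 1 the shares were 63.4% and 36.7%. They were 54.7% and 35.2% without WT//WT replicate 1, and 51.6% and 40.5% without WT//WT replicate 2. Leaving out 1 library also unbalances the runs of label numbers, for which these fits hold no term. In ungrafted stems 70.5% of the genes higher in 35S:SFT and 43.5% of those lower in 35S:SFT lay below 0 in sft against WT, with medians of log2 -0.12 and 0.02. Under the 35S:SFT donor the shares on sft against WT recipients were 65.4% and 37%.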

How the data were processed

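Stem RNA was measured by RNA-seq. The values are whole-number read counts per gene, deposited by the authors in 1 table of 34728 rows and 24 libraries, of which 0 columns of samples were left unmapped. The heat-shock table was not used. The tools named by the submitters' processing notes are HTSeq 0.6.1, Bowtie2 2.2.6, TopHat2 2.1.0, Trim Galore and FastQC 0.11.5. Genome build, strand setting and order of steps were not given in the sources used here. The library kit named in the labels does not mark strand, so overlapping genes and near-identical copies may share reads.

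Counts were tested in R 4.3.3 with edgeR 4.0.16 (quasi-likelihood test, two-sided, TMM, filterByExpr with a minimum count of 10 and total of 15), over all groups of an experiment (10 libraries for grafts), with Benjamini-Hochberg adjustment over all genes tested. DESeq2 1.42.0, RLE scaling, no filter, only the groups compared, blocks and leaving out libraries were alternatives. SE is the log2 fold change divided by the root of the F statistic. CPM uses TMM-scaled totals. The procedure was run on simulated counts with known fold changes, to check the size of the changes it returns. These counts held no difference between runs of label numbers, so they do not show how the calls fare with one.

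The libraries compared, the gene lists, the windows and the comparisons were chosen with earlier results of these data known. Genes named are the 2 of smallest p in each direction per comparison, called or else with groups apart and a mean log2 CPM of at least 1, together with SFT, SP, FUL1, FUL2, MBP10 and MBP20. The 6 symbols were tied to identifiers from published knowledge. The reference table holds 0 of the table's identifiers, so other genes carry no name, and 28 lists by product name, cell type markers among them, were not run: the labelled stem tissue was not checked against markers.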

Additional observations from a re-analysis of the deposited data

How the results depend on the processing

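The counts of genes called depend on the tool and on single libraries. DESeq2 called 121 genes between the control grafts, 275 under the 35S:SFT donor, 539 for the mean of both, 21 for their difference and 82 in ungrafted stems. Without the filter on low counts edgeR called 5 under the donor, 53 for the mean and 23 in ungrafted stems. Fitted to only the groups compared, it called 0 between the control grafts, 0 under the donor, 21 for the mean and 0 in ungrafted stems. With the replicate number as a block, 2 genes were called between the control grafts, 0 under the donor, 27 for the mean and 4 in ungrafted stems. With a replicate block by the run of label numbers, the counts were 7, 50 and 376 for the control grafts, the donor and the mean. Nothing in the labels says that a number or a run pairs samples. Deviations of same-numbered libraries correlated over 0.1 in 4 of 10 pairs of graft groups (-0.57 to 0.49; 0.23 for sft//sft and WT//WT). Taken by run, in which the sp libraries swap places, they did so in 8 of 10 (-0.02 to 0.57). By run 1 pair lay below 0, against 5 by replicate number, so libraries of a run tended to deviate together. The main fit holds no term for the run because the labels name none. What the runs stand for was not tested. Without 1 library, where the lone sample left in a group is assumed to vary like the other groups, 0 genes were called between the control grafts (lowest and highest 0) and 0 under the donor, 4 to 27 for the mean, 0 to 1 for the difference and 0 to 42 in ungrafted stems.

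The alternatives chosen after seeing the data, leaving out each control-graft library, gave 86 to 138 genes with 1 direction in 3 comparisons, 11 to 13 of them around SP, 10 to 11 genes with the sign of the ungrafted stems, 69.6% to 77.6% of genes in the direction of the ungrafted stems, 47.2% to 63.4% of genes higher in 35S:SFT below 0, and 35.2% to 48.2% of genes lower in 35S:SFT below 0. The first of these shares reversed side at 47.2%, without sft//sft replicate 2. The causes were not tested.

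The 6 genes followed in every alternative (FUL1, FUL2 and the 2 named in each direction) kept their direction. Solyc06g017860 ranged from log2 5.57 to 5.77 (adjusted p 2.3e-08 to 0.38) and Solyc11g066090 from -2.15 to -1.91 (8.2e-19 to 0.39). Both lost the call in 5 of 10 alternatives, the 4 that left out a library and the fit to only the groups compared. Solyc01g073690 ranged from -0.98 to -0.82 (3.3e-14 to 0.88) and was called in 3 of 10, DESeq2, no filter and the block by run (0.02). Solyc11g065180 ranged from 0.68 to 0.78 (2e-04 to 0.94) and was called by DESeq2. FUL2 ranged from -1.86 to -1.46 (0.0038 to 0.91) and FUL1 from -2.56 to -1.18 (0.013 to 0.94). FUL1 and FUL2 rest on 7 to 29 reads in each sft//sft library.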
